A study of Mus musculus with 12 samples.

Results

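Of the TET2 sites listed for mouse myeloid cells, 3700 lay between protein-coding genes and shared no base with any TET2 site listed for acute myeloid leukemia (AML) cells. They were taken from 18533 sites of the myeloid list on chromosomes 1 to 19, so 20.0% of that list (95% interval 19.4 to 20.6%) and 27.1% of its 13668 sites that overlapped no AML site. Both lists together held 25311 sites. Overlapping rows of a list had first been merged into 1 site, and 97.2% of the 3700 sites were 1 deposited row. A site counted as intergenic when its midpoint was outside every protein-coding gene and more than 1 kb and at most 100 kb from the nearest coordinate where such a gene starts or ends, called a gene end below. The sites were thus chosen by their listed positions, and their absence from the AML list and their location are not results.

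The study mapped TET2 by chromatin immunoprecipitation and sequencing (ChIP-seq), in which an antibody pulls down a protein with the DNA it sits on. Of 12 libraries, 8 used a rabbit antibody raised to N-terminal TET2, with 2 libraries per genotype and cell type, and each cell type had 1 input and 1 IgG library. The myeloid cells were cultured hematopoietic cells immortalized with the retroviral transgene MigR1-AML1-ETO, which expresses the AML1-ETO fusion of the transcription factor RUNX1. Their wild-type, input and IgG libraries were labelled Tet2fl/fl; AML1-ETO, that is, with floxed Tet2 alleles, and their knockout libraries Tet2-/-; AML1-ETO. The AML cells carried no transgene and were labelled Npm1+/cA; Fl3+/ITD, with Tet2-/- added in the knockout. Whether a culture came from 1 clone or 1 animal is not stated. The medium held stem cell factor at 50 ng/ml and the interleukins IL-3 and IL-6 at 10 ng/ml each, and cells were crosslinked with 2 mM disuccinimidyl glutarate and 1% formaldehyde. The lists gave positions alone, 1 list per cell type, so no site had a height, a depth or a replicate error. Intervals below are exact 95% intervals that cover counting error over sites only. Every difference between classes is a difference between 2 lists of unequal length (18533 and 6778 merged sites) with no replicate check, and a site missing from the AML list may have been bound at a level that was not listed.

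TET2 oxidizes 5-methylcytosine, mostly in the sequence CG, to 5-hydroxymethylcytosine and further products that lead to loss of methylation. In blood cells it is known to act at enhancers, stretches of DNA outside promoters where transcription factors bind and act on genes at a distance. TET2 lacks the CXXC domain with which its relatives bind CG-rich DNA, and transcription factors such as PU.1, C/EBP and RUNX1 are known partners or neighbours of it in myeloid cells. Loss of TET2 function is common in human myeloid leukemia.

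Sequence was available for the starts of long non-coding RNAs (lncRNAs) and for microRNAs that lay in or beside the sites, from RefSeq on GRCm38.p6, whose chromosome coordinates are those of mm10. The first 5 windows below show CG-rich and CG-poor lncRNA starts covered by a site, where counts ran from 1 to 43 CG in a window. Each runs from 250 bases before to 50 bases after the start, 5′ to 3′ on the strand of the lncRNA, with each CG in capitals. Snhg5 is a host gene of small nucleolar RNAs (chr9:88522848-88523147, minus strand, 36 CG). Dleu2 is the host of a microRNA cluster often lost in human chronic lymphocytic leukemia (chr14:61682324-61682623, minus strand, 29 CG). Mir22hg is the host of miR-22 (chr11:75461289-75461588, plus strand, 12 CG), and Malat1 is an abundant nuclear RNA (chr19:5802623-5802922, minus strand, 10 CG). Gm20559, a lncRNA known by its model name, was among the windows with the fewest CG (chr6:3346089-3346388, minus strand, 1 CG).
Snhg5: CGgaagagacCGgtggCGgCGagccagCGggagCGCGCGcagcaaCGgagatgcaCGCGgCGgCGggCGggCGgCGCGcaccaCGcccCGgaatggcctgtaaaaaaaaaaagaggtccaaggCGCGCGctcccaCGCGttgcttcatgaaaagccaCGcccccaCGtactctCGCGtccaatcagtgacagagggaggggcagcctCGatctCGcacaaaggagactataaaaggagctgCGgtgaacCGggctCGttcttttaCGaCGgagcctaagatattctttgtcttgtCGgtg
Dleu2: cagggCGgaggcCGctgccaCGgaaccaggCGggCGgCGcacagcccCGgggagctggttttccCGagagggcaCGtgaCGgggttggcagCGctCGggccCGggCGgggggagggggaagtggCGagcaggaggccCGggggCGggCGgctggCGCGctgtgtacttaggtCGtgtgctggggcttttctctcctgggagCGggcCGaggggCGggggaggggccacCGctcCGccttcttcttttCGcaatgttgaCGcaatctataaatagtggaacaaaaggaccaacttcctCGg
Mir22hg: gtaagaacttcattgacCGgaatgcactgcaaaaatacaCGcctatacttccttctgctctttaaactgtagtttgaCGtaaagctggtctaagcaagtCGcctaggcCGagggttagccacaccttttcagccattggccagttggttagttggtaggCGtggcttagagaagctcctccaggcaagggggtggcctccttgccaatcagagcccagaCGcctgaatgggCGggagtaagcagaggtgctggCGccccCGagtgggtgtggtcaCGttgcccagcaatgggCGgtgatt
Malat1: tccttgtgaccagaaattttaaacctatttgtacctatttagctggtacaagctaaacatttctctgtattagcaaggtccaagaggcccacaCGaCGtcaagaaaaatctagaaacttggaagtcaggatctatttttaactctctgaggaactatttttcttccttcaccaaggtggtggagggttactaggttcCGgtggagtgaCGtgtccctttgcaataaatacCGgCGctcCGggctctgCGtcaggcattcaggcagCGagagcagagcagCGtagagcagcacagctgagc
Gm20559: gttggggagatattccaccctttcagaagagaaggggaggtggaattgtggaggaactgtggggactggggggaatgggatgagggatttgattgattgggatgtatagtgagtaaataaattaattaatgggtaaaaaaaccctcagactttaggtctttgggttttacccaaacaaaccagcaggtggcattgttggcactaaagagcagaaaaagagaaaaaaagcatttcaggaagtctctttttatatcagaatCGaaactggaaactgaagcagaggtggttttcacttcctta
Snhg5 and Dleu2 held the most CG of these 5 windows, Mir22hg and Malat1 fewer, and Gm20559 held 1.

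The 2 windows that follow were the only ones inside a site that held both the PU.1-type letters GAGGAAGT and the RUNX letters TGTGGT. Capitals mark these letters or, where they lie on the other strand, their reverse complements. Gm51657 (chr9:96896856-96897155, plus strand) lay 4.42 kb from Pxylp1 and Gm19951 (chr12:99642846-99643145, plus strand) lay 49.1 kb from Efcab11.
Gm51657: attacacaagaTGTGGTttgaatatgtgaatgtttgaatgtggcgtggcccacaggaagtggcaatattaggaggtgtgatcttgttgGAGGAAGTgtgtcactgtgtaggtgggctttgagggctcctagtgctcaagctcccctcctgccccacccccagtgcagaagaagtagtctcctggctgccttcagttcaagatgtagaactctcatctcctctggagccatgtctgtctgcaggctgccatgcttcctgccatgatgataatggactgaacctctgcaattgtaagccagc
Gm19951: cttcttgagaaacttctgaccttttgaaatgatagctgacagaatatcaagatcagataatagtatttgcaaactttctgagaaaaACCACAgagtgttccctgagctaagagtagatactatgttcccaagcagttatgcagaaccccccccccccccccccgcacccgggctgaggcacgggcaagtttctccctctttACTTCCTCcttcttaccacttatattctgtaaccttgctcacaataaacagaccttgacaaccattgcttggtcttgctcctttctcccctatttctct
In Gm51657 both runs of letters were on the strand shown, and in Gm19951 both were on the other strand.

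The mature microRNAs below come from hairpins within 5 kb of a site and are those with a described role in blood cells, hypoxia or TET2 itself. Capitals mark the seed, bases 2 to 8, which pairs with target transcripts. miR-142a is restricted to blood cells, miR-22 is known to target Tet2 transcripts, and miR-146b damps signalling of innate immunity. miR-210 is induced by hypoxia, miR-101a targets the methyltransferase Ezh2, and miR-23a, miR-27a and miR-24 form a cluster known to favour myeloid over B cell development in mice.
miR-142a-5p: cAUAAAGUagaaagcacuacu
miR-142a-3p: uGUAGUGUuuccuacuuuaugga
miR-22-3p: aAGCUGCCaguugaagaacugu
miR-146b-5p: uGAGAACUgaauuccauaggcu
miR-210-3p: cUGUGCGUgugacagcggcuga
miR-101a-3p: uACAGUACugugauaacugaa
miR-23a-3p: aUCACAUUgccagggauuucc
miR-27a-3p: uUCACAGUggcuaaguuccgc
miR-24-3p: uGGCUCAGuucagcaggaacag
No seed was shared: the 25 mature microRNAs of these hairpins had 25 different seeds.

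The myeloid-only intergenic sites were mostly of similar width, as were those of the AML-only class. Their median width was 688 bp (quartiles 656 and 738 bp, range 621 to 2137 bp), and together they covered 2.66 Mb. Intergenic sites present in both lists, the shared class of 1820 sites, had a median of 755 bp as merged in the myeloid list (quartiles 702 and 823 bp). The 5537 myeloid-only sites inside genes had a median of 690 bp, and the 750 AML-only intergenic sites 702 bp (quartiles 679 and 743 bp). The narrowest site was 621 bp wide in each of these classes of the myeloid list and 651 bp in the AML-only class. Widths of the 2 lists thus had different lower ends. Of the myeloid-only intergenic sites, 101 (2.73%, interval 2.23 to 3.31%) were wider than 1000 bp, against 154 of the shared class (8.46%, 7.22 to 9.84%) and 3.41% of the myeloid-only gene body class. In the AML-only class 9 sites were (1.20%, 0.550 to 2.27%). The width of a called site can depend on the height of its signal and on merging, and neither was tested.

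**Figure D1:**
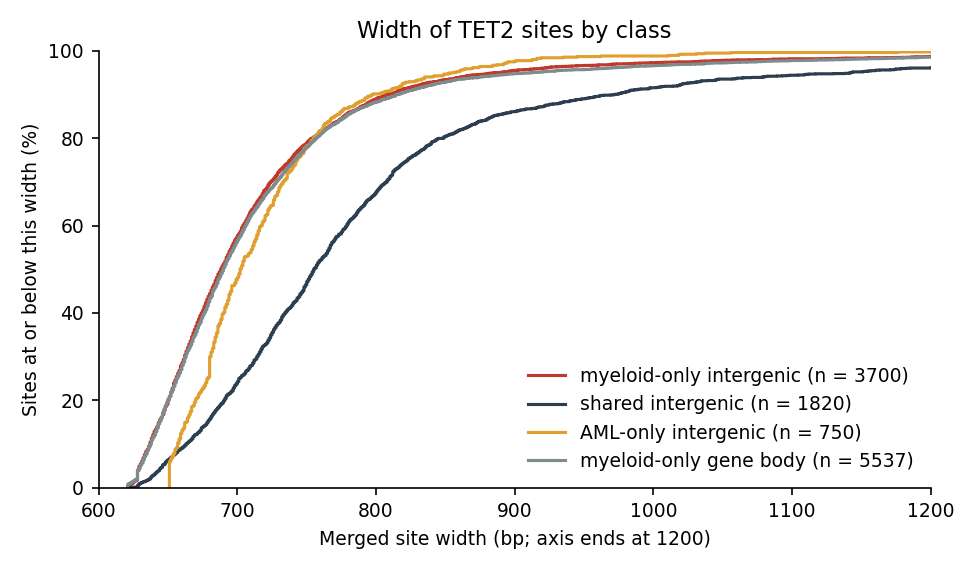
Cumulative share of merged TET2 sites (%, vertical axis) by width (bp, horizontal axis, ending at 1200) in 4 classes. The curves of the 3700 myeloid-only intergenic and 5537 myeloid-only gene body sites nearly coincide, with medians of 688 and 690 bp, and that of the 1820 shared intergenic sites lies to the right with a median of 755 bp.

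The widest myeloid-only intergenic site, of 2137 bp at chr11:75459803-75461940, was 6.06 kb from Wdr81, a gene of endosome and lysosome traffic, and covered the start of Mir22hg printed above. A site of 2034 bp lay 46.5 kb from Rbx1, the RING subunit of cullin ubiquitin ligases, and one of 1905 bp lay 5.64 kb from the transcription factor gene Klf9. The fourth, of 1808 bp at chr19:5802286-5804094, covered the start of Malat1. The fifth, of 1655 bp, lay 33.4 kb from the chemokine receptor gene Ccr1. Of these 5 sites, 2 therefore covered the start of a lncRNA, and each was joined from 2 or 3 deposited rows.

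The sites lay at a median of 14.0 kb from a gene end (quartiles 5.64 and 32.2 kb), against 15.1 kb in the shared class and 18.3 kb in the AML-only class. The sequence in which a site could be counted as intergenic, called available sequence below, came to 735.5 Mb. The 3700 sites had a density of 5.03 per Mb of it (4.87 to 5.20), the shared class 2.48 per Mb and the AML-only class 1.02 per Mb. When every annotated gene, and not the protein-coding ones alone, set which sites were intergenic and how far they lay, the median distance was 8.05 kb and the density 3.23 per Mb. Density was highest beside genes, with 9.05 sites per Mb (8.00 to 10.2) from 1 to 2 kb, and lowest farthest out, with 2.89 per Mb (2.65 to 3.14) from 50 to 100 kb. In the shared class the same 2 values were 4.14 and 1.40 per Mb, and in the AML-only class 1.54 and 0.763 per Mb. All 3 classes were thus densest in the bin nearest to genes and sparsest in the farthest, and the intervals of these 2 bins did not overlap in any of them.

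**Figure D2:**
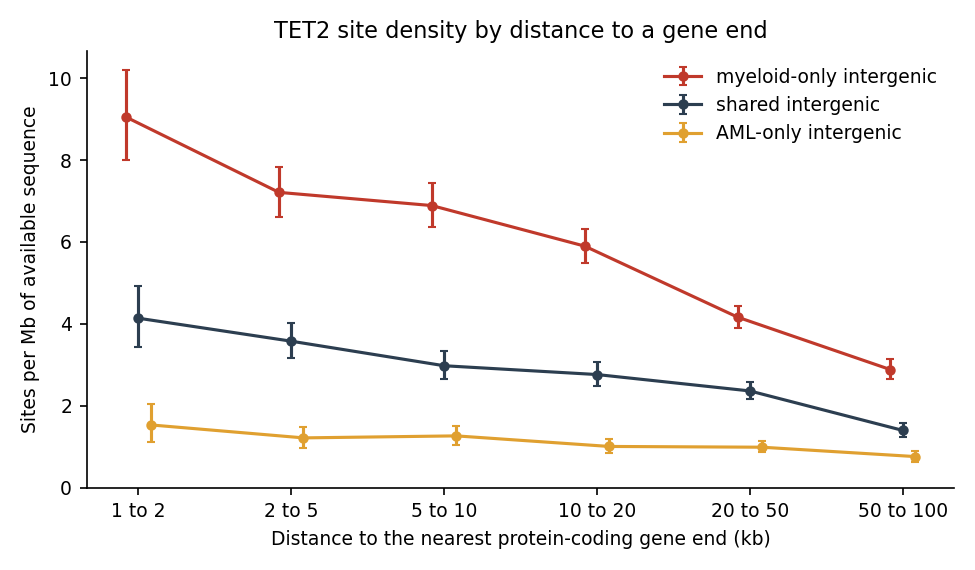
Intergenic TET2 sites per Mb of available sequence (vertical axis) by distance to the nearest protein-coding gene end (kb, horizontal axis) for 3 classes, with exact 95% Poisson intervals as bars. Myeloid-only intergenic sites go from 9.05 per Mb at 1 to 2 kb to 2.89 per Mb at 50 to 100 kb and lie above both other classes in every bin.

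At the limits of the definition, the site nearest to the inner one lay 1003 bp from Rp9 and was included, and one 993 bp from Rmi2 was not. At the outer limit, a site 99952 bp from Thbs1 was included and one 100023 bp from Ubl3 was not. The shared intergenic site with the smallest overlap, near Ola1, had 5 bp in common with an AML site, and the included site nearest to an AML site, near Pbp2, was 9 bp away from it.

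The strand was known for 79.6% of protein-coding genes and so for the nearest gene of 2917 sites. Of these sites, 58.9% (57.1 to 60.7%) lay on the 5′ side of that gene, where 54.0% of the available sequence was. In the shared class the share was 59.7% and in the AML-only class 56.1%. Intergenic here refers to protein-coding genes alone: 727 sites (19.6%, 18.4 to 21.0%) had their midpoint in a non-coding gene, as did 21.6% of the shared class, 20.3% of the AML-only class and 15.9% of the available sequence. Most of these were lncRNA genes, which held 17.9% of the sites and 13.2% of the available sequence. Pseudogenes held 1.22% of the sites and 2.40% of the available sequence. The chromosomes differed in density. Chromosome 11 had 7.92 sites per Mb (7.02 to 8.89) and chromosome 19 had 6.63 (5.51 to 7.90), while chromosomes 18 and 14 had 3.79 and 3.83. The shared class stood at 3.57, 3.69, 1.99 and 1.80 per Mb on the same 4 chromosomes.

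Sites listed in the myeloid cells alone lay at widely varied distances from TET2 sites of the AML cells. The median gap to the nearest AML site was 41.7 kb (quartiles 12.1 and 116 kb). Of the 3700 sites, 131 (3.54%) had an AML site within 1 kb, 807 (21.8%, 20.5 to 23.2%) within 10 kb and 2650 (71.6%) within 100 kb. The shares of myeloid-only gene body sites were 3.12%, 19.7% and 68.4%. Of AML-only intergenic sites, 5.87%, 34.4% and 85.2% had a site of the longer myeloid list as near. The share of all available sequence that lies as near to an AML site was not measured. The sites nearest to an AML site lay 9 bp from it near Pbp2, 11 bp near Slc16a14, a gene of the monocarboxylate transporter family, 14 bp near Fam204a, 24 bp near Stx11, a syntaxin of granule release in blood cells, and 58 bp near Gsap. The most isolated site, near the formin gene Diaph3, was 5.96 Mb from the nearest AML site. The next lay 3.45 Mb away near Serpini1, which encodes a protease inhibitor of the nervous system, 3.12 Mb near Csmd3, 2.96 Mb near Prxl2a and 2.82 Mb near Chl1, a neural cell adhesion gene.

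Most sites stood alone at a reach of 10 kb. Another site of the class was within 10 kb of 1035 sites (28.0%, 26.5 to 29.4%), as for 29.4% of myeloid-only gene body sites, 21.0% of shared intergenic and 9.20% of AML-only intergenic sites. These shares depend on how many sites a class holds. A site of the myeloid list of any class was within 10 kb of 47.6% of the sites. Joined at gaps of up to 10 kb, the sites formed 2665 single sites, 360 pairs, 64 runs of 3, 25 of 4, 3 of 5 and 1 of 8.

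The run of 8 was at chr2:170175573-170224446, a stretch of 48.9 kb in front of Zfp217, whose human counterpart is amplified in breast cancer, and no other site of either list lay in it. Of the runs of 5, that of 15.4 kb (chr6:72265523-72280871) had Atoh8, a transcription factor gene, and Sftpb, which encodes a lung surfactant protein, as its nearest genes. That of 17.1 kb (chr2:167367076-167384188) lay beside B4galt5, an enzyme of glycolipid synthesis, and that of 18.1 kb (chr10:68072567-68090658) beside Arid5b, a DNA-binding protein gene, and Rtkn2. The tightest of the 5 runs named here held 4 sites in 6.24 kb beside Azin1 (chr15:38467964-38474199). None of the 5 runs held an AML site or another myeloid site.

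Of the 18452 protein-coding genes with available sequence, 2625 (14.2%) were the nearest gene of at least 1 site. Of these genes, 1925 had 1 site, 700 had 2 or more and 35 had 5 or more. Genes with sites had more room, with a median of 44.9 kb of available sequence against 17.1 kb in genes without. An AML site at any location was assigned to 1172 of the 2625 genes (44.7%), and to 16.5% of the genes without a site. A shared intergenic site was assigned to 25.7% and 4.88% of the same 2 groups of genes. The remaining 1453 genes with a site had no AML site assigned to them, although one nearer to another gene may lie close by. Among the 35 genes with 5 or more sites, 6 had none assigned: Bahcc1, Ikzf2, Ptma, Tent5c, Atp11b and Cwc27.

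Zfp217 (gene 228913, chr2:170108643-170151677, minus strand) had the most sites, 10 where its 112 kb of available sequence would hold 0.564 at the average density (Poisson interval of the count 4.80 to 18.4). All 10 lay on its 5′ side, from 3.99 to 92.7 kb out, and were 630 to 790 bp wide. A shared site and 2 AML-only sites lay among the nearer ones, and the gap to the nearest AML site grew from 1.52 kb at the first site to 62.6 kb at the last. Next came Zfp36l2, which encodes a protein that destabilizes messenger RNAs and is needed by blood stem cells. It had 8 sites, 2.01 to 80.3 kb away, where 0.498 would be held at the average density, and the sites nearest to and farthest from an AML site were 0.135 and 44.6 kb from it.

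Bahcc1, a chromatin protein with a BAH domain, had 7 sites, and no AML site at any location was assigned to it. Of these, 3 lay 1.29, 13.7 and 23.3 kb out on the 5′ side and 4 lay 7.42 to 23.9 kb out on the 3′ side, where 0.329 in all would be held at the average density. Cebpb, a transcription factor of emergency granulocyte production, also had 7 sites. Of these, 1 lay 1.13 kb before the gene and 6 lay 24.8 to 74.9 kb after it, interleaved with 4 shared sites, and all but that first site were within 12.4 kb of an AML site. Ptpn1, a tyrosine phosphatase that acts on JAK kinases, had 7 sites as well, all on the 5′ side at 8.72 to 99.5 kb, with 1 shared intergenic site.

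The other genes among the 10 with most sites had 5 or 6 each. Azin1, which raises polyamine synthesis, and Klf10, a transcription factor gene induced by TGF-beta, are neighbours on chromosome 15 and had 6 each. From the first to the last of their sites the stretch was 0.250 Mb, with 12 sites and no other protein-coding gene wholly within it. Hgf, hepatocyte growth factor, had 5 sites on its 5′ side at 5.80 to 83.4 kb and 1 at 80.0 kb on its 3′ side. S1pr1, the sphingosine 1-phosphate receptor of lymphocyte exit from tissues, had 6 sites at 16.1 to 68.8 kb and 3 shared sites. Actr3, a subunit of the Arp2/3 complex of actin assembly and the first by symbol of the genes with 5 sites, had 4 sites at 27.4 to 37.7 kb on its 5′ side and 1 at 49.6 kb on its 3′ side.

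Zfp217, Cebpb, Ptpn1 and B4galt5 lie on 1 stretch of chromosome 2, which was singled out after its values were seen. From B4galt5 to the last site of Zfp217 (chr2:167298444-170244781, 2.95 Mb) there were 33 sites, or 10.4% of the 317 sites of chromosome 2. The share of the 55.3 Mb of available sequence of chromosome 2 that lies in the stretch was not measured. As the stretch was drawn around genes with many sites, its count is high by choice. The 33 sites were assigned to 7 genes, and 21 protein-coding genes lay wholly within the stretch.

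**Figure D3:**
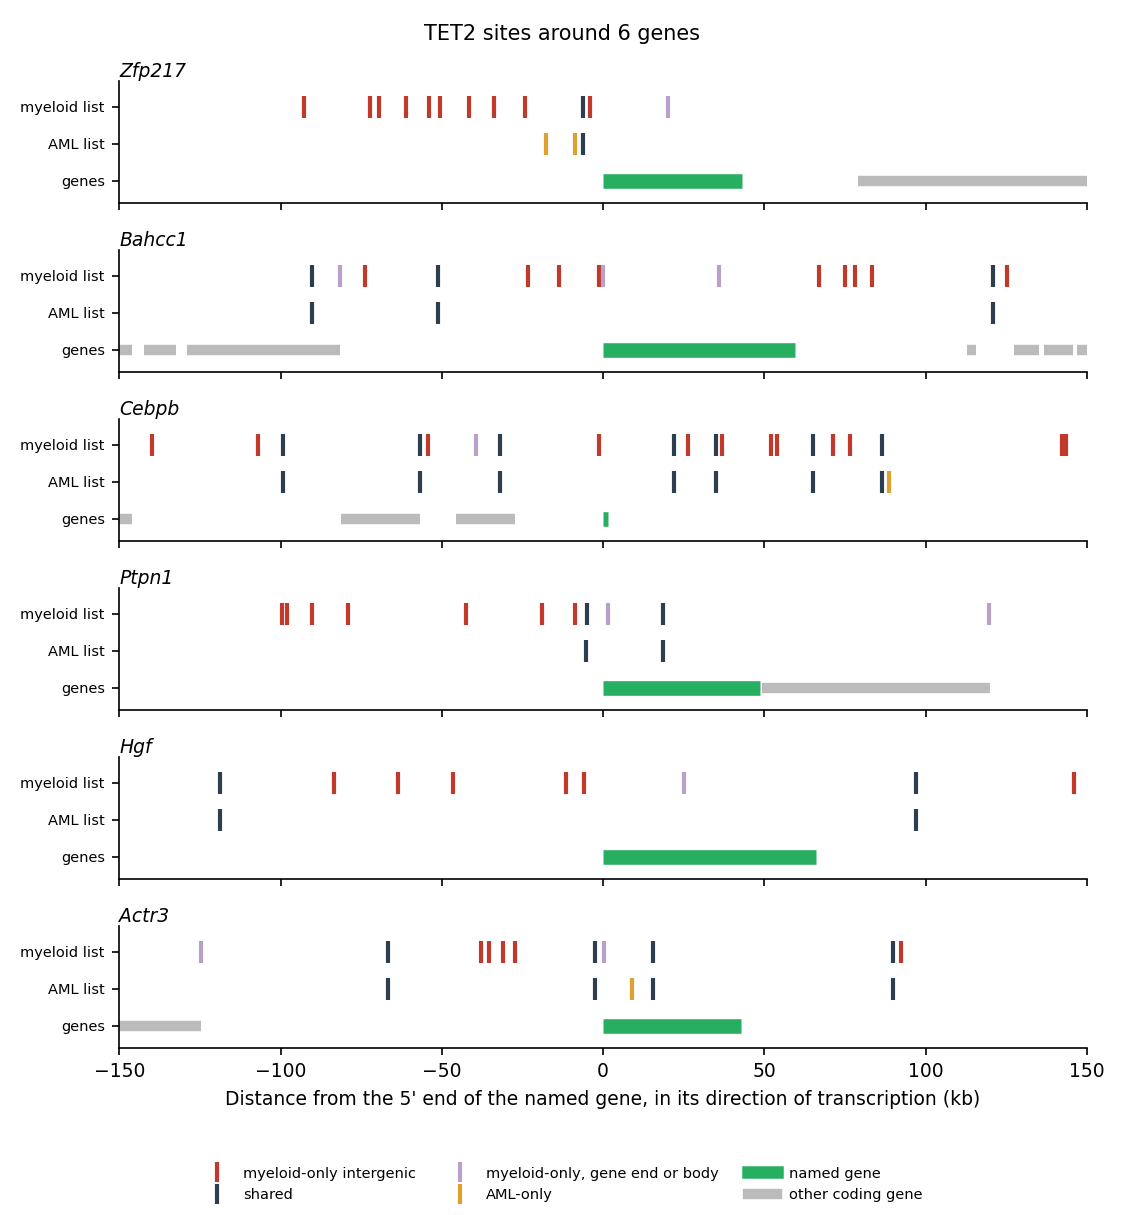
TET2 sites (ticks) around the 6 of the 10 leading genes whose strand was known, by distance of the site midpoint from the 5′ end of the gene in its direction of transcription (kb, horizontal axis). Rows give the myeloid list, the AML list and the genes. Myeloid-only intergenic ticks are spread over the 5′ side of Zfp217 and Ptpn1, stand on both sides of Bahcc1, and are interleaved with 4 shared ticks after Cebpb.

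Genes of myeloid and progenitor cells, of their signalling and of DNA methylation had, together, more sites per Mb than genes of other cell types. Over 8 lists of such genes, 103 of 195 genes with available sequence (52.8%) had a site, with 17.2 sites per Mb (14.7 to 19.9). Over 5 lists of other cell types, 10 of 77 genes (13.0%) had one, with 2.92 per Mb (1.46 to 5.23). The values over all genes were 14.2% and 5.03 per Mb. With every annotated gene in the definition, 65 listed genes had a site in place of 113. Olfactory receptor genes, which are silent in blood cells, had 24 of 1094 genes with a site (2.19%) and 1.06 per Mb. The shared class differed in the same direction, with 9.97 per Mb at the 8 lists, 0.531 at the 5 lists, and 2.47 over all genes. Median available sequence per gene was 26.4 kb in the 8 lists and 25.9 kb in the 5. Single lists differed more, with 16.3 kb in mast cell, basophil and eosinophil genes and 13.8 kb in granule and neutrophil genes. Neuronal genes had 77.8 kb, B cell genes 10.5 kb and erythroid genes 6.89 kb. List densities were not adjusted for distance to a gene end.

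**Figure D4:**
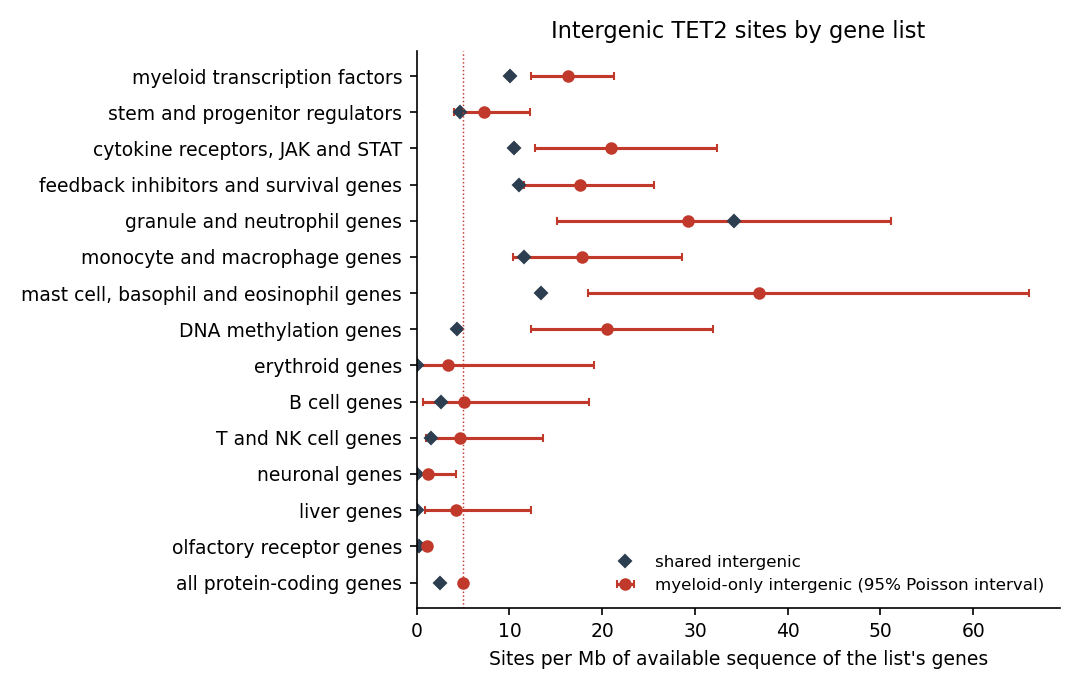
Sites per Mb of available sequence (horizontal axis) for the genes of each list (vertical axis). Circles with exact 95% Poisson intervals are myeloid-only intergenic sites, diamonds are shared intergenic sites and the dotted line is the value over all genes, 5.03 per Mb. Mast cell, basophil and eosinophil genes (36.9) and granule and neutrophil genes (29.3) stand farthest to the right, and neuronal (1.16) and olfactory receptor genes (1.06) farthest to the left. The lists differ in available sequence per gene, for which the values were not adjusted.

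Among transcription factors of myeloid cells, 29 of 43 genes had a site, with 16.3 sites per Mb (12.3 to 21.3) and 10.1 per Mb in the shared class. Cebpb led with 7 sites. Fos, a subunit of AP-1, had 5, at 1.54 and 18.5 kb on its 5′ side and 8.77, 12.1 and 55.5 kb on its 3′ side. Ikzf2, the Ikaros family member Helios, had 5 sites between 1.81 and 34.9 kb from the gene and 4 further myeloid-only sites in its body. No AML site was assigned to it. The nearest AML site to any of these 5 intergenic sites was 1410 kb away. Klf6 had 4 sites. Spi1, which encodes PU.1, had none in its 5.14 kb of available sequence, while 5 sites of the myeloid list, of any class, were assigned to it. With more room, the transcription factor genes Klf13, Ets1 and Runx2 had none either, in 154, 144 and 99.0 kb.

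Regulators of stem and progenitor cells had 11 of 23 genes with a site and 7.30 sites per Mb (3.99 to 12.3), an interval that includes the value over all genes. Lmo2, an adaptor of the blood stem cell transcription factor complex, had 3 sites, of which 2 were 0.139 and 0.373 kb from an AML site. Cd34, a surface protein of progenitors, had 2. Erg and Gata2, transcription factors of stem cells, had 1 each, with 6 and 3 further myeloid-only sites in their gene bodies. The transcription factor genes Myb and Hhex had none in 87.7 and 52.5 kb of available sequence. To each, 4 sites of the myeloid list were assigned when shared sites and all locations were counted.

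Cytokine receptors and their JAK and STAT proteins had 12 of 25 genes with a site and 20.9 sites per Mb (12.8 to 32.4), with 10.5 per Mb in the shared class. Ptpn11, the phosphatase SHP2 of the RAS pathway, had 5 sites, 1 of them 5.89 kb out on the 5′ side and 1153 bp wide. The other 4 lay 23.3 to 51.8 kb out on the 3′ side. Csf2ra and Csf2rb, chains of the receptors for GM-CSF and, for Csf2rb, interleukin 3, had 2 each. Csf2rb had no AML site assigned to it, and its sites lay 4.70 and 4.82 kb from either end. Jak2, the kinase these receptors use, had 2 sites, 23.5 and 49.9 kb out on the 5′ side.

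Feedback inhibitors and survival genes had 14 of 22 genes with a site and 17.6 sites per Mb (11.6 to 25.5), with 11.1 per Mb in the shared class. Socs1, an inhibitor of JAK signalling, had 3 sites in 18.7 kb of available sequence, at 8.76, 11.5 and 14.8 kb on its 3′ side and 62.9 to 65.7 kb from an AML site. It had 3 myeloid-only sites at its gene ends and no AML site assigned to it. Bcl2l11, which encodes the death factor BIM, and the MAP kinase phosphatase genes Dusp1 and Dusp6 also had 3 each. Around Dusp1 there were 4 shared intergenic sites besides, all within 53.8 kb of available sequence.

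Of the 8 lists, that of granule and neutrophil genes was the one in which the shared class was the denser, with 34.2 per Mb against 29.3 (15.1 to 51.2) for myeloid-only intergenic sites. A site was present at 11 of 26 genes. Camp, the antimicrobial peptide cathelicidin, had 2, at 5.10 and 12.1 kb on its 5′ side. Ctsg, cathepsin G, Cxcr2, a neutrophil chemokine receptor, and Hp, haptoglobin, had 1 each. Elane and Mpo, of the primary granules, had none, with 0.887 and 2.94 kb of available sequence.

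Monocyte and macrophage genes had 9 of 25 genes with a site and 17.9 sites per Mb (10.4 to 28.6). The chemokine genes Ccl3 and Ccl6 had 3 each, the bacterial lipoprotein receptor gene Tlr2 had 3, and the fractalkine receptor gene Cx3cr1 had 2. The sites of Ccl3 and Ccl6 were all within 19.7 kb of an AML site. Marco, Cd36 and Mrc1 had no site in 112, 60.5 and 29.9 kb of available sequence. Mast cell, basophil and eosinophil genes had 9 of 16 genes with a site and 36.9 sites per Mb (18.4 to 66.0), with 13.4 per Mb in the shared class. They rested on 11 sites in 0.298 Mb. Ccr3, a chemokine receptor of eosinophils, and Srgn, the granule proteoglycan serglycin, had 2 each, and the mast cell protease genes Cma1 and Cpa3 had 1 each. Fcer1a and Tpsb2 had none in 21.8 and 20.8 kb of available sequence.

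In the list of DNA methylation genes, which also holds genes linked to it less directly, 9 of 19 had a site. The density was 20.5 sites per Mb (12.3 to 32.0), against 4.31 per Mb in the shared class. Gadd45g and Gadd45b, stress genes linked to DNA demethylation, had 5 and 2 of the 19 sites. Tet2, the targeted gene itself (chr3:133463677-133545136, minus strand), had 4 sites. They lay 40.1 and 78.1 kb out on its 5′ side, the first of these 1.30 kb from an AML site, and 27.02 and 40.4 kb out on its 3′ side, 146 and 159 kb from an AML site. It also had 2 myeloid-only sites at its gene ends and 1 shared intergenic site. Cxxc5, a CXXC domain gene, and Idh2 had 2 each, and Dnmt3a, Mbd2, Gadd45a and Cxxc4 had 1 each. Dnmt3b and Tet1 had none in 33.1 and 20.7 kb of available sequence, nor had Dnmt1 and Tet3 in 5.34 and 10.6 kb.

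In the lists of other cell types, counts were small. B cell genes had 5.13 sites per Mb, T and NK cell genes 4.67, liver genes 4.21 and erythroid genes 3.42. Each of these intervals includes the 5.03 per Mb over all genes. Neuronal genes, with 1.16 per Mb (0.140 to 4.19), were below it. Cd22, a receptor of B cells, had 2 in 9.38 kb of available sequence and was the only B cell gene with one of 13. Gata3, Klrb1c and Tcf7 had 1 each among 15 T and NK cell genes. The synaptic gene Snap25 had 1 site, in a list of 20 neuronal genes, and Apob, Cyp7a1 and Pck1 had 1 each among 16 liver genes. None of the genes named here had an AML site assigned to it.

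Of 5087 start windows of intergenic lncRNAs, 104 (2.04%) from 86 genes lay wholly inside a myeloid-only intergenic site, 46 inside a shared and 9 inside an AML-only intergenic site. In terms of sites, 105 of the 3700 (2.84%, 2.33 to 3.43%) held the start of a lncRNA, as did 3.08% of the shared class and 1.73% of the AML-only class. The windows inside the sites were richer in CG than lncRNA starts in general. They held a median of 8 CG (quartiles 4 and 18.8), against 6 (4 and 9) in windows inside shared sites, 4 (2 and 6) in all intergenic lncRNA windows and 14 in windows of protein-coding genes.

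Of the 104 windows, 35 (33.7%) held 15 or more CG, as Snhg5 and Dleu2 printed above do, against 7 of 46 (15.2%) in the shared class and 206 of 5087 (4.05%) in all. Seen from the windows, 35 of the 206 CG-rich ones (17.0%, 12.1 to 22.8%) lay in a myeloid-only intergenic site and 7 (3.40%, 1.38 to 6.88%) in a shared one. Of the 4881 others the numbers were 69 (1.41%, 1.10 to 1.79%) and 39 (0.799%, 0.569 to 1.09%). The host genes of small nucleolar RNAs Snhg5, Snhg15, Snhg16 and Snhg17 were among the CG-rich ones, with 36, 29, 22 and 15 CG. With 1 window per gene, that with most CG, 38.4% of 86 genes in myeloid-only sites and 16.3% of 43 in shared sites held 15 or more. As the window was kept by its CG count, these shares cannot be below those of a window kept without regard to CG. How strongly these lncRNAs were transcribed in either cell type was not tested.

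**Figure D5:**
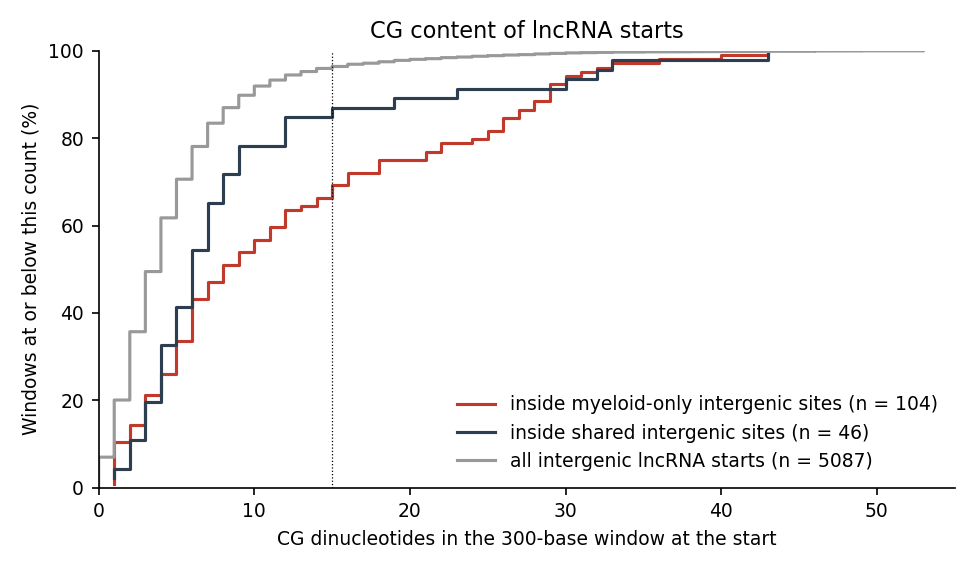
Cumulative share of lncRNA start windows (%, vertical axis) by the number of CG in the window of 300 bases (horizontal axis), for windows inside myeloid-only intergenic sites (104), inside shared intergenic sites (46) and for all intergenic lncRNAs (5087). The dotted line marks 15 CG, a count that 33.7%, 15.2% and 4.05% of the windows reach.

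The letters of myeloid transcription factors were sought on both strands of the same windows. The PU.1-type letters GAGGAAGT, which contain the general ETS core GGAA, were in 12.5% of the 104 windows, in 10.9% of the 46 windows inside shared sites and in 3.66% of all 5087. Counted with 1 window per gene, again that with most CG, they were in 12.8%, 6.98% and 3.86%. The C/EBP letters TTGCNNAA were in 20.2%, 30.4% and 12.9% of the windows, and the RUNX letters TGTGGT in 26 of 104, 16 of 46 and 1107 of 5087. The AP-1 letters TGANTCA were in 16.3%, 13.0% and 10.5%, and with 1 window per gene in 11.6%, 14.0% and 10.8%, so their order against the shared class turned. The GATA letters AGATAA were in 22.1%, 13.0% and 15.4%, and with 1 window per gene in 17.4%, 14.0% and 15.5%. Per gene, the C/EBP letters were in 20.9%, 25.6% and 12.4% and the RUNX letters in 25.6%, 37.2% and 22.0%. The E-box letters CANNTG, at 74.0%, 82.6% and 80.2%, and the core GGAA, at 98.1%, 97.8% and 97.2%, were in most windows of every class. Of the 9 windows inside AML-only intergenic sites, 5 held the RUNX letters, 3 the GATA letters and 1 the AP-1 letters. The PU.1-type and C/EBP letters were in 2 of the 9 each, numbers too small for a comparison of shares. A match is a run of letters and no evidence of binding by the factor, and these windows stand for a small part of the 3700 sites.

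Of 176 intergenic microRNA hairpins, 15 (8.52%, 4.85 to 13.7%) at 11 loci lay within 5 kb of a myeloid-only intergenic site. For shared and AML-only intergenic sites the numbers were 9 (5.11%) and 2 (1.14%). These counts depend on how many sites a class holds, here 3700, 1820 and 750. The share of all available sequence within 5 kb of a site was not measured. The cluster of Mir23a, Mir27a and Mir24-2 on chromosome 8 had 3 sites within 5 kb, 1 of which, of 724 bp at chr8:84208825-84209549, covered Mir24-2 in part. The nearest AML site was 144 kb away. Mir210 lay 0.052 kb from a site of 777 bp (chr7:141221545-141222322) and 46.8 kb from an AML site. Mir146b was 1.39 kb and Mir22 1.78 kb from a site, and the latter was the widest one, over the start of Mir22hg. Mir101a was 2.23 kb from a site. Mir142 and Mir142b, which lie on opposite strands of 1 locus, were 1.78 and 1.76 kb from a site and were the only ones of the 15 within 5 kb of an AML site, at 4.73 and 4.71 kb. In all, 5 hairpins overlapped a site: Mir5103, Mir8096, Mir7671 near Irf1, Mir24-2 and Mir3074-2.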

How the data were processed

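For each cell type the authors deposited 1 list of TET2 sites with 3 columns per the file headers, chromosome, start and end, and no measured value. Tools named by the submitters' processing notes are Bowtie2, MACS2 and Trimmomatic, with the build mm10. Versions, thresholds, pooling of replicates and the use of knockout, IgG and input libraries were not given in the sources used here. Nor was it stated whether starts count from 0 or 1, which leaves positions uncertain by 1 bp. The depth is unknown, since the lists carry no reads.

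Rows of a list that overlapped were merged, on chromosomes 1 to 19, with Python 3.11.15, numpy 2.4.6, pandas 2.3.3 and scipy 1.17.1. Genes, lncRNA start windows and microRNAs came from RefSeq on GRCm38.p6. The strand was matched for 16457 of 20665 protein-coding genes. A site went to the gene whose end was nearest, and the available sequence of a gene was the part of the 735.5 Mb that lies nearest to it. Shares have Clopper-Pearson and counts Poisson 95% intervals. With 1 list per cell type there was no test. The functions were tested on simulated data.

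The sites and the 13 gene lists (277 of 278 genes matched) were chosen with earlier results of these data known. Genes named were the 10 with most sites, up to 4 per list with most sites, the 5 widest sites, the 5 longest runs by number of sites, the sites at each limit, and the 5 nearest to and farthest from an AML site. Some genes that this rule takes are not reported here. Other genes of the lists are named where they had no site, and they, the lncRNAs, the microRNAs and the stretches of several genes were chosen after their values were seen. A motif scan over all sites was planned and not run, as no genome of the build was used here, and letters were sought in the RefSeq windows alone. Alternatives changed the merging, the distance limits, the gene set, the chromosomes, the overlap that counts as shared, and the neighbour distance.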

Additional observations from a re-analysis of the deposited data

How the results depend on the processing

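Of 78 values recomputed under an alternative, 59 stayed within the counting error of the value or, for counts, within 1.5 times of it, and 19 moved. Some alternatives change the measure itself. A reach of 5 kb can only lower the neighbour shares, 20 kb can only raise them, and a limit of 10 CG can only raise the CG share. The distance limits likewise set which distances enter the median. The tally includes all of these. When an AML site within 1 kb counted as shared, 18.9% of the sites were within 10 kb of an AML site and the density was 4.85 per Mb. With a gene-end limit of 0.5 kb the median distance came to 13.0 kb, and with 2 kb it was 15.5 kb and the density 4.86 per Mb. With an upper limit of 50 kb these were 10.96 kb and 5.75 per Mb, and 18.4% of sites lay in a non-coding gene. Measured from every annotated gene and not from protein-coding ones alone, the distance was 8.05 kb, 24.6% had a neighbour within 10 kb, the density was 3.23 per Mb and 65 listed genes had a site, against 113. Without merging, 32.1% had a neighbour, but overlapping rows of 1 site then counted as neighbours of each other. With X and Y added the density was 4.46 per Mb. At 5 kb in place of 10 kb, 18.7% had a neighbour and 13.1% an AML site in reach, and at 20 kb these were 38.4% and 34.0%. With 10 CG in place of 15 as the limit, an alternative chosen after seeing the data, 46.2% of the lncRNA windows inside sites passed. No paired analysis was possible because the lists hold no value per library, and no library could be left out for the same reason. Density and listed genes without merging, non-coding shares with all annotated genes, and the motif windows were not run. Depth and signal over background limit every list, and neither could be measured from positions alone.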
